A study of Arabidopsis thaliana with 12 samples.

Results

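The atg2-4 allele was compared in seedlings that also carried lon2-8: the lon2-8 atg2-4 double mutant against the lon2-8 single mutant, across all genes, in 6 of the 12 RNA sequencing libraries of the study. Both groups share the lon2-8 allele, so the comparison asks what the atg2-4 allele changes when the peroxisomal protease LON2 is already mutated. The RNA level of LON2 was not equal in the groups, being lower in the double mutant. The deposited table holds 26093 genes, and the 20662 genes with at least 1 FPKM (fragments scaled to transcript length and library size) in at least 3 libraries were tested. The 4 genotypes, all in the Col-0 ecotype, were lon2-8 atg2-4, lon2-8, atg2-4 and the wild type Col-0, with 3 libraries each that the series design calls biological replicates. Poly-A RNA came from whole seedlings grown in continuous light on plant nutrient medium with no further treatment, aged 6 days by the series design but 8 days by the growth protocol. Titles and genotype tags name opposite mutants for the 6 single-mutant samples, so all groups rest on the column names of the table. How the alleles were made and how many seedlings were pooled per library were points not given in the sources used here.

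Autophagy is the route by which a plant cell wraps cytosol or whole organelles in a double membrane and delivers them to the vacuole for breakdown. ATG2 is a lipid transfer protein that feeds the growing membrane, and plants without it cannot complete autophagosomes. LON2 is a protease and chaperone of the peroxisome matrix. Peroxisomes of lon2 mutants are degraded by autophagy (pexophagy), and mutations in ATG genes are known to restore several peroxisomal traits of lon2 plants. In older tissue, autophagy mutants are also known for early senescence that depends on the defence hormone salicylic acid.

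The 6 libraries held 15560955 to 18690658 fragments in genes, and replicates correlated at r = 0.992 to 0.994 across genes. Markers of the organs of a seedling were present: none of the 41 photosynthesis genes, 31 root markers, 21 epidermis, guard cell and trichome markers or 17 seed genes in the table was at 0 in all 3 libraries of any genotype. The summed level of the root markers was 1851 to 1980 FPKM in the double mutant, against 3229 to 3674 FPKM in lon2-8, and that of the photosynthesis genes was 46656 to 48463 FPKM in the double mutant, against 51387 to 54035 FPKM in lon2-8. A single gene, PYK10, made up much of the difference in the root sum. With each root marker weighted equally, the mean log2(FPKM + 1) was 4.26 to 4.36 in the double mutant, against 4.63 to 4.84 in lon2-8. That mean was 4.34 to 4.5 in atg2-4 and 4.40 to 4.51 in Col-0, so lon2-8 stood highest of the 4 genotypes. In a whole seedling, fewer cells of a type and less RNA per cell cannot be told apart, and the part of these differences in the results that follow was not tested. No growth, harvest or sequencing batch is named in the labels.

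The mutated genes were read first. ATG2 was at 6.41, 6.28 and 7.07 FPKM in the double mutant, against 7.96, 7.79 and 7.0 FPKM in lon2-8. The groups overlapped, and the difference was small (−0.18 ± 0.061 log2, adjusted p = 0.0269). That call was lost when only the 6 libraries were fitted (adjusted p = 0.0563), and without double mutant library 1 or 2 or lon2-8 library 1 or 2 (adjusted p = 0.0816 to 0.101), so the RNA level of ATG2 alone is a weak check of the label. The importin gene IMPA-1, on the same chromosome as ATG2, gave a wide separation, at 3.73, 4.32 and 3.96 FPKM in the double mutant, against 26.2, 26.6 and 26.1 FPKM in lon2-8 (−2.45 ± 0.049 log2, adjusted p = 4.93e-13). It was at 3.29, 3.25 and 3.38 FPKM in atg2-4, against 27.7, 28.1 and 26.3 FPKM in Col-0, so it was low in both genotypes with atg2-4 (interaction 0.27 ± 0.07 log2, adjusted p = 0.0222). In these libraries the effects of atg2-4 on ATG2 and of any other change that came with it, such as low IMPA-1, cannot be told apart. IMPA-1 overlaps AT3G06730, and reads may be shared since how strand was handled in counting was not given in the sources used here. Of the 50 tested genes nearest to each in gene order on assembly TAIR10.1, 42% changed around ATG2 and 56% around IMPA-1, against 49.9% of all genes tested.

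LON2, mutated in both groups, was at 4.45, 4.53 and 5.36 FPKM in the double mutant, against 12.1, 11.1 and 11.7 FPKM in lon2-8 (−1.13 ± 0.064 log2, adjusted p = 1.12e-08). In the wild-type background LON2 was at 23.2, 21.9 and 21.7 FPKM in atg2-4, against 24.7, 25.3 and 27.8 FPKM in Col-0 (−0.21 ± 0.064 log2, adjusted p = 0.0163). The interaction, which is the effect of atg2-4 in lon2-8 minus its effect in Col-0, was −0.92 ± 0.091 log2, adjusted p = 3.21e-05. MAD1, whose product acts in the spindle checkpoint and which lies on LON2's chromosome, was at 1.15, 1.08 and 1.14 FPKM in the double mutant, against 1.96, 1.93 and 2.15 FPKM in lon2-8 (−0.51 ± 0.061 log2, adjusted p = 1.62e-05) and 5.51, 5.09 and 5.53 FPKM in atg2-4, against 5.09, 4.98 and 5.23 FPKM in Col-0 (0.06 ± 0.061 log2, adjusted p = 0.419). MAD1 overlaps AT5G49890, with which reads may be shared. The groups therefore differed in LON2 and MAD1 RNA as well as in atg2-4. The part of this in the differences and interactions that follow was not tested. Around LON2 54% of the 50 nearest tested genes changed, and around MAD1 44%.

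Across the transcriptome, 10305 of 20662 genes changed (49.9%), of which 5220 rose (25.3% of genes tested) and 5085 fell (24.6%). Most changes were small: among the called genes the lower quartile, median and upper quartile of the absolute difference were 0.24, 0.35 and 0.56 on the log2(FPKM + 1) scale. At least 2-fold changes were found for 853 genes (4.13%), and these ran upward, with 671 rises (3.25%) and 182 falls (0.881%). The 3 libraries of one genotype lay wholly beyond those of the other for 11981 of the genes tested (58%). The median difference over all genes tested was −0.0054. Differences below are double mutant minus lon2-8 with their standard error on this scale, which understates the change of low genes, and p comes from limma with Benjamini-Hochberg adjustment over all genes tested.

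Many of the largest rises were of genes nearly silent in lon2-8. The cupin gene AT5G38910 was at 136, 123 and 119 FPKM in the double mutant, against 0.0653, 0 and 0.0566 FPKM in lon2-8 (6.93 ± 0.064 log2, adjusted p = 4.12e-16). AT3G55790 (no named product), the lectin receptor kinase genes AT2G29220 and AT2G29250 and the noncoding locus AT1G08763 were likewise below 1 FPKM in every lon2-8 library and at 34.0 to 162 FPKM in the double mutant libraries. CYP82C2, a cytochrome P450 of indolic defence compounds, was at 91.9, 90.5 and 83.4 FPKM in the double mutant, against 0.436, 0.417 and 0.856 FPKM in lon2-8 (5.84 ± 0.092 log2, adjusted p = 6.22e-14). Only genes that passed and whose groups did not overlap were ranked here, so the separation of these groups was set by the selection.

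Among the rest of the 15 largest rises, the extensin-like gene AT1G26240 was at 498, 563 and 498 FPKM in the double mutant, against 5.22, 3.4 and 5.38 FPKM in lon2-8 (6.54 ± 0.11 log2, adjusted p = 8.57e-14), and AT1G26390, of the berberine bridge enzyme family of oxidases, at 381, 351 and 335 FPKM in the double mutant, against 3.2, 3.63 and 3.03 FPKM in lon2-8 (6.38 ± 0.059 log2, adjusted p = 4.12e-16). The germin-like genes GLP9 and GLP4 averaged 488 ± 14.3 and 101 ± 6.1 FPKM in the double mutant, against 7.23 ± 0.45 and 4.28 ± 0.24 FPKM in lon2-8 (SD, n = 3 each), which are ratios of 67.5 and 23.5. Reads of GLP4 may be shared with the overlapping AT1G18975. The other members were AT1G29100 (a putative heavy metal transport protein), AT3G28510 (a nucleoside triphosphate hydrolase), AT1G58320 (a PLAC8 protein), AT1G53610 and AT1G53625, each at 24.5-fold or more of its lon2-8 level.

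**Figure D1:**
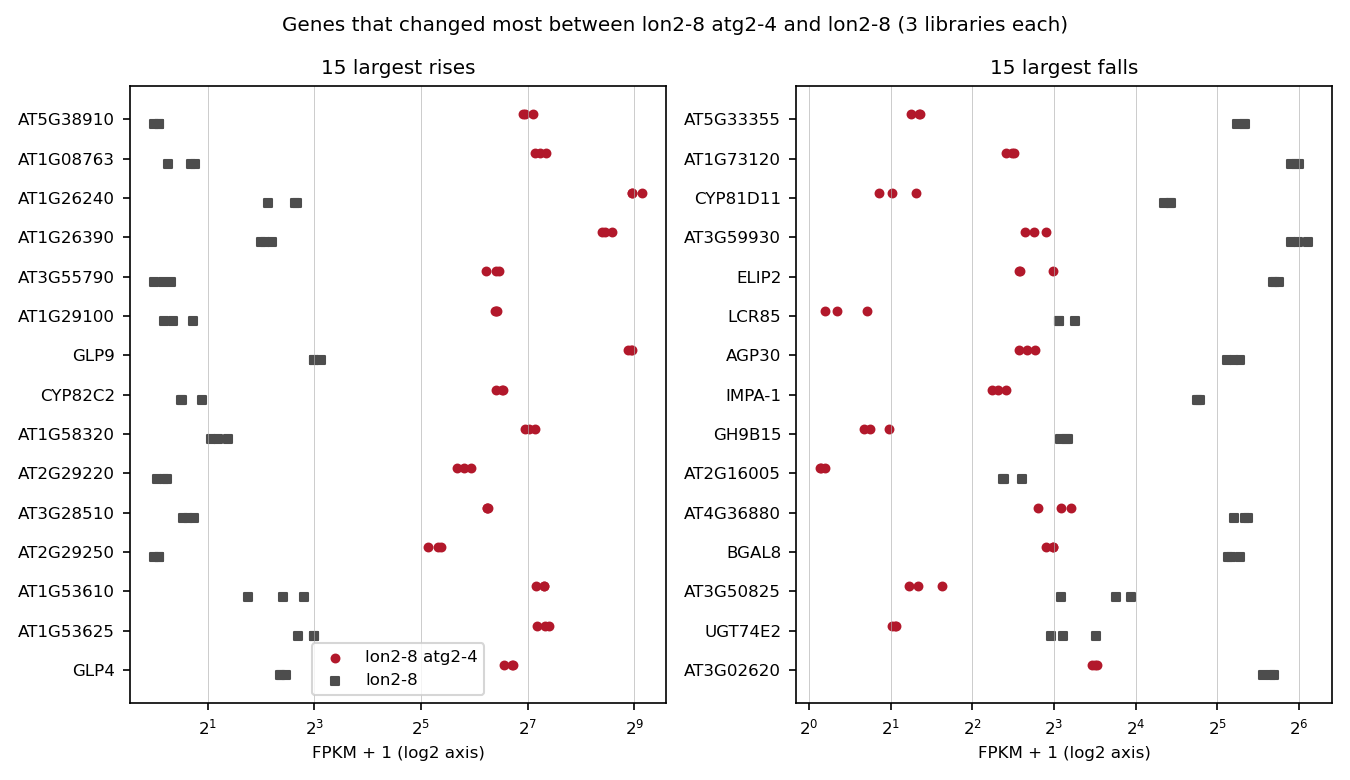
FPKM + 1 on a log2 axis for the 15 largest rises and the 15 largest falls between the lon2-8 atg2-4 double mutant (red circles) and lon2-8 (grey squares), one point per library. Only genes in which the 3 libraries of one genotype lie beyond the 3 of the other were eligible for this figure. The rises start from at most 7.75 FPKM in lon2-8 libraries, and the falls from 4.17 to 68.0 FPKM.

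Among the 15 largest falls, which include IMPA-1, the defensin-like genes AT5G33355 and AT3G59930 were at 1.54, 1.37 and 1.57 and 5.75, 5.27 and 6.45 FPKM in the double mutant, against 36.8, 39.4 and 39.4 and 62.8, 59.0 and 68.0 FPKM in lon2-8. Their differences were −3.98 ± 0.057 (adjusted p = 2.40e-14) and −3.24 ± 0.075 (adjusted p = 1.95e-12). Another gene of this kind, LCR85, was at 0.348 FPKM in the double mutant, against 7.76 FPKM in lon2-8. The detoxification P450 gene CYP81D11 was at 0.808, 1.02 and 1.47 FPKM in the double mutant, against 19.4, 20.7 and 20.4 FPKM in lon2-8 (−3.35 ± 0.099 log2, adjusted p = 1.79e-11). The arabinogalactan protein gene AGP30 and the β-galactosidase gene BGAL8 fell to 0.15 and 0.19 of their lon2-8 levels, the lipid recognition protein gene AT2G16005 to 0.0259 and the desaturase-family gene AT3G02620 to 0.211.

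In a second set among the 15 falls the double mutant stood near the wild-type level while lon2-8 stood apart. AT1G73120, an F-box family gene, was at 4.71, 4.61 and 4.31 FPKM in the double mutant, against 58.8, 63.2 and 61.7 FPKM in lon2-8 (−3.49 ± 0.093 log2, adjusted p = 7.39e-12), and at 2.63, 3.74 and 3.29 FPKM in atg2-4, against 4.17, 3.36 and 3.27 FPKM in Col-0 (−0.13 ± 0.093 log2, adjusted p = 0.273). ELIP2, an early light-induced chlorophyll-binding protein, was at 6.92, 5.01 and 4.93 FPKM in the double mutant, against 51.3, 50.5 and 53.0 FPKM in lon2-8, and at 4.24, 4.02 and 4.11 FPKM in atg2-4, against 5.23, 6.75 and 6.87 FPKM in Col-0. The endoglucanase gene GH9B15 averaged 0.753 ± 0.2 FPKM in the double mutant and 7.76 ± 0.3 FPKM in lon2-8, and 0.747 ± 0.14 FPKM in atg2-4 and 0.969 ± 0.22 FPKM in Col-0. The glucosyltransferase gene UGT74E2, a marker of hydrogen peroxide responses, averaged 1.06 ± 0.036 FPKM in the double mutant and 8.32 ± 1.9 FPKM in lon2-8, and 0.765 ± 0.27 FPKM in atg2-4 and 1.35 ± 0.3 FPKM in Col-0. The interaction passed for all 4, between −1.74 ± 0.21 for UGT74E2 (adjusted p = 1.27e-04) and −3.36 ± 0.13 for AT1G73120 (adjusted p = 2.80e-08). The cysteine proteinase gene AT4G36880 was lower both with atg2-4 in lon2-8 (−2.27 ± 0.13) and with atg2-4 in Col-0 (−1.10 ± 0.13). The lon2-8 libraries of AT3G50825, of no named product, spread widely, with the gene at 1.34, 2.1 and 1.52 FPKM in the double mutant, against 14.5, 7.47 and 12.5 FPKM in lon2-8.

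Gene lists by function were then counted, against the 25.3% of all genes tested that rose and the 24.6% that fell. Salicylic acid and immune response genes had the highest median difference of the 31 lists, 1.39, with 25 of 28 tested members risen, 1 fallen and 2 not past the threshold. PBS3, which makes the glutamate conjugate from which salicylic acid forms, was at 28.0, 27.0 and 24.1 FPKM in the double mutant, against 0.445, 0.738 and 0.618 FPKM in lon2-8 (4.10 ± 0.097 log2, adjusted p = 2.45e-12). CBP60g, a calmodulin-binding transcription factor that switches on salicylic acid synthesis, was at 53.4, 54.0 and 51.8 FPKM in the double mutant, against 2.82, 3.12 and 2.59 FPKM in lon2-8 (3.82 ± 0.051 log2, adjusted p = 1.13e-14). ICS1, the isochorismate synthase at the head of the route, averaged 17.2 ± 1.3 FPKM in the double mutant and 3.85 ± 0.25 FPKM in lon2-8. The groups did not overlap for any of these 3 genes, as for 58% of all genes tested. The genes were chosen by their adjusted p or their values, so this separation was set by the selection.

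Genes for turnover of the hormone and for the response to it rose too. DLO1, a salicylic acid hydroxylase, was at 16.1, 16.5 and 16.6 FPKM in the double mutant, against 0.906, 1.11 and 1.14 FPKM in lon2-8 (3.08 ± 0.073 log2, adjusted p = 2.66e-12). FMO1, which makes the systemic signal N-hydroxypipecolate, averaged 28.7 ± 0.57 FPKM in the double mutant and 1.22 ± 0.18 FPKM in lon2-8. The defence output genes PR1 and PR2 rose to 5.08 and 3.36 FPKM in the double mutant, against 1.78 and 1.49 FPKM in lon2-8 (1.13 ± 0.098 and 0.81 ± 0.1). PR5, of the same list, was too low to pass the filter and was not tested. EDS5, the chloroplast exporter of the precursor, was at 8.23 ± 0.11 FPKM in the double mutant and 7.99 ± 0.48 FPKM in lon2-8 and did not pass (adjusted p = 0.666). EARLI1, a lipid-transfer-like protein, was the member that fell. ICS1, FMO1, PR1, PR2 and EDS5 were named after their values were seen.

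Transcription factors and receptors of defence rose in large families. Of 60 tested WRKY factors, 37 rose, 8 fell and 15 did not pass (median 0.36). Some are counted in other lists too, WRKY46 and WRKY70 with salicylic acid and WRKY33 with camalexin, so these counts are not independent. WRKY59 was at 10.9, 12.9 and 11.2 FPKM in the double mutant, against 0.132, 0.156 and 0.0229 FPKM in lon2-8 (3.52 ± 0.08 log2, adjusted p = 1.74e-12). WRKY46, WRKY70 and WRKY33 averaged 13.6 ± 0.57, 16.6 ± 0.52 and 59.3 ± 1.4 FPKM in the double mutant, against 1.78 ± 0.15, 2.65 ± 0.37 and 22.0 ± 0.49 FPKM in lon2-8. The cysteine-rich receptor-like kinases, membrane kinases whose genes sit in tandem clusters, had 24 of 29 tested members risen and 0 fallen (median 0.89). CRK14 was at 5.7, 5.95 and 5.68 FPKM in the double mutant, against 0.898, 1.3 and 0.978 FPKM in lon2-8 (1.72 ± 0.089 log2, adjusted p = 4.53e-09), and CRK9, CRK10 and CRK11 rose by 1.51 ± 0.066, 1.39 ± 0.054 and 1.27 ± 0.059. Reads of neighbouring members such as CRK10 and CRK11, which overlap, may be shared.

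**Figure D2:**
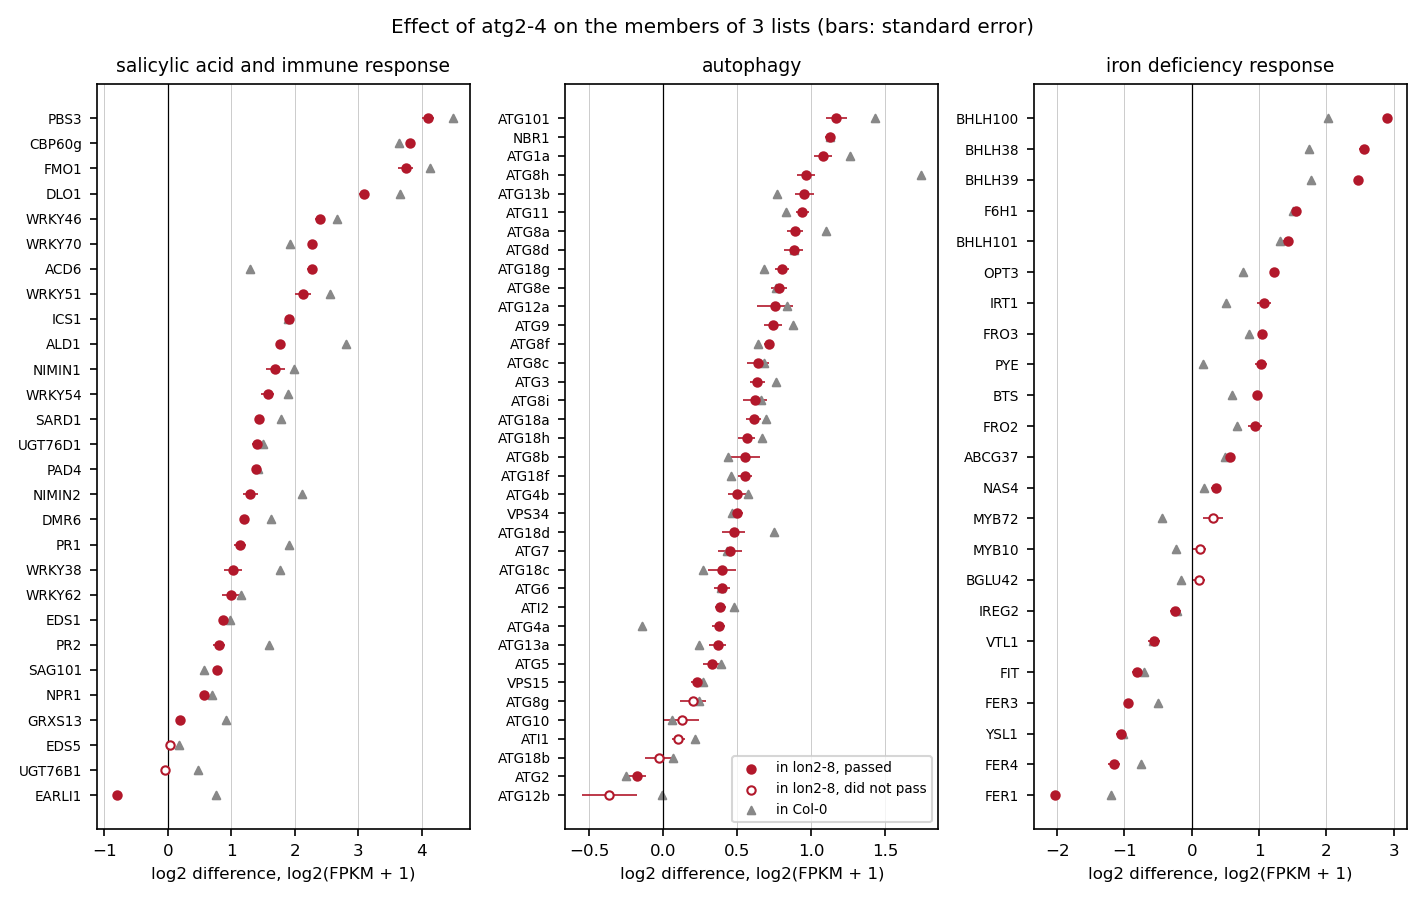
Differences on the log2(FPKM + 1) scale for each tested member of 3 lists; red circles are the double mutant minus lon2-8 (filled where adjusted p was under 0.05, bars the standard error) and grey triangles are atg2-4 minus Col-0. Immune and autophagy members lie to the right of 0 with few exceptions, such as EARLI1 at −0.80 and ATG2 at −0.18. The lowest autophagy member, which did not pass, lies at −0.365. The iron list runs from BHLH100 at 2.90 to FER1 at −2.04, with FIT, also a bHLH factor, at −0.81.

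Defence metabolism moved in opposite directions by pathway. Of 12 tested genes for camalexin and cyanogenic indolic compounds, 11 rose and 1, the transporter gene ABCG34, fell although its groups overlapped (median 1.04). CYP71A12, which converts indole-3-acetaldoxime, was at 164, 166 and 149 FPKM in the double mutant, against 11.2, 11.5 and 14.3 FPKM in lon2-8 (3.60 ± 0.073 log2, adjusted p = 4.93e-13). Of 22 genes of indolic glucosinolates, 13 rose and 6 fell. The regulator MYB51, the hydroxylase gene CYP81F2, the methyltransferase gene IGMT2 and the exporter gene PEN3 rose by 1.43 ± 0.057, 1.53 ± 0.048, 1.44 ± 0.045 and 0.85 ± 0.033, while CYP81F4 was at 41.8 ± 3.6 FPKM in the double mutant, against 122 ± 9.4 FPKM in lon2-8.

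Aliphatic glucosinolate genes went the other way, with 13 of 18 lower and 3 higher (median −0.44). The chain elongation gene IMD1 was at 26.1, 26.2 and 26.7 FPKM in the double mutant, against 46.8, 45.9 and 49.8 FPKM in lon2-8 (−0.83 ± 0.038 log2, adjusted p = 1.55e-09), and IPMI1, IPMI2 and CYP79F2 differed by −0.89 ± 0.07, −0.62 ± 0.063 and −0.70 ± 0.044. All 15 tested genes of anthocyanin and flavonoid synthesis fell (median −0.83). The flavonol synthase gene FLS1 was at 14.3, 11.8 and 12.8 FPKM in the double mutant, against 43.7, 50.7 and 49.9 FPKM in lon2-8 (−1.81 ± 0.072 log2, adjusted p = 3.30e-10), and the chalcone synthase gene CHS at 126, 114 and 121 FPKM in the double mutant, against 220.2, 224 and 223 FPKM in lon2-8 (−0.88 ± 0.054 log2, adjusted p = 2.13e-08). The chalcone isomerase gene TT5 and its partner CHIL differed by −1.20 ± 0.061 and −0.92 ± 0.042.

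**Figure D3:**
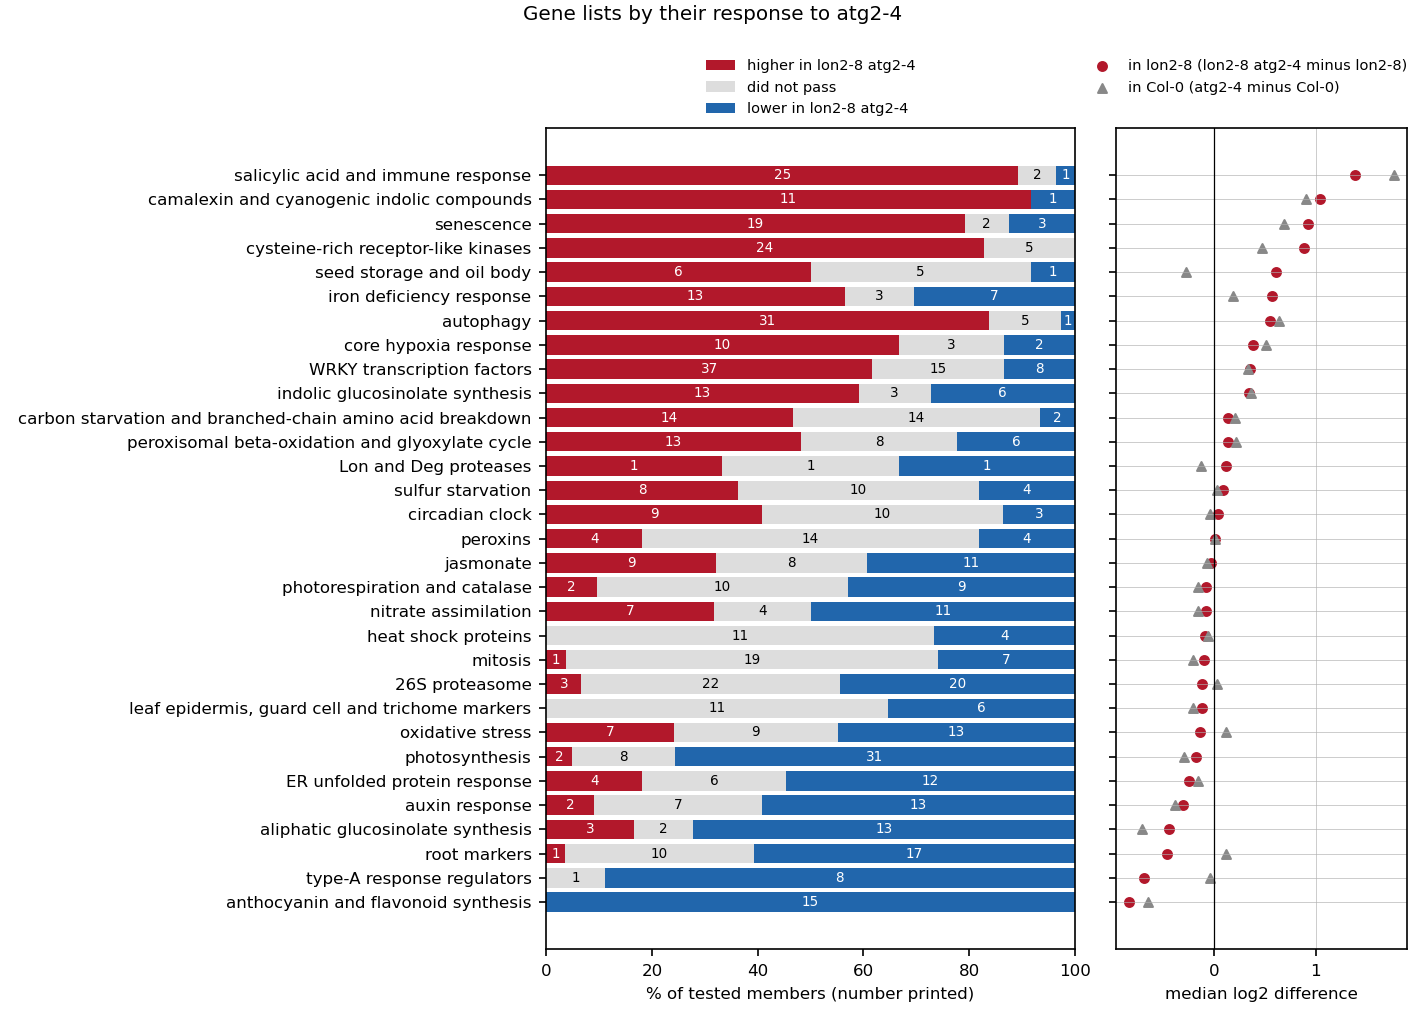
Left, the share of tested members of each of the 31 lists that were higher (red), did not pass (grey) or were lower (blue) in the double mutant than in lon2-8, with the number of genes printed. Right, the median difference of each list for atg2-4 in lon2-8 (red circles) and in Col-0 (grey triangles); the salicylic acid list lies furthest right at 1.39 and the flavonoid list furthest left at −0.83 for the lon2-8 background.

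Autophagy genes were mostly higher: 31 of 37 tested members rose, 1, ATG2, fell and 5 did not pass (median 0.55). NBR1, the receptor that brings ubiquitinated cargo to autophagosomes, was at 136, 129.7 and 132 FPKM in the double mutant, against 59.8, 59.8 and 61.3 FPKM in lon2-8 (1.12 ± 0.03 log2, adjusted p = 7.79e-12). The kinase gene ATG1a was at 21.3, 18.5 and 18.9 FPKM in the double mutant, against 8.71, 8.93 and 8.5 FPKM in lon2-8 (1.08 ± 0.062 log2, adjusted p = 1.15e-08), and the scaffold gene ATG11 at 27.9, 27.1 and 26.7 FPKM in the double mutant, against 14.2, 13.9 and 13.1 FPKM in lon2-8 (0.94 ± 0.042 log2, adjusted p = 1.15e-09). In each the double mutant libraries all lay above those of lon2-8, but groups did not overlap for 58% of all genes tested. These genes too were chosen by their adjusted p or their values, so the separation was set by the selection. Of the ATG8 genes, whose products coat the membrane, ATG8a, ATG8b, ATG8c, ATG8d, ATG8e, ATG8f, ATG8h and ATG8i rose, between 0.55 ± 0.098 for ATG8b and 0.96 ± 0.061 for ATG8h, and ATG8g did not pass (0.20 ± 0.088, adjusted p = 0.0737). Reads of NBR1 and ATG11 may be shared with genes that overlap them.

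Senescence genes followed, with 19 of 24 tested members risen, 3 fallen and 2 not past the threshold (median 0.93). ORE1, a NAC factor that drives leaf ageing, was at 48.4, 50.2 and 49.4 FPKM in the double mutant, against 15.0, 14.8 and 16.7 FPKM in lon2-8 (1.61 ± 0.046 log2, adjusted p = 1.41e-11). The chlorophyll dechelatase gene NYE1 was at 27.9, 26.9 and 27.3 FPKM in the double mutant, against 9.13, 9.63 and 8.14 FPKM in lon2-8 (1.51 ± 0.059 log2, adjusted p = 2.93e-10), and the nitrogen remobilisation gene GLN1;4 at 15.6, 15.4 and 14.7 FPKM in the double mutant, against 3.7, 3.3 and 3.51 FPKM in lon2-8 (1.85 ± 0.078 log2, adjusted p = 6.06e-10). NYC1 and NOL, which reduce chlorophyll b, and ANAC072 were the 3 that fell. Photosynthesis genes fell by smaller steps, 31 of 41 lower and 2 higher, with a median of −0.18. LHCB3, an antenna protein, averaged 383 ± 5.5 FPKM in the double mutant and 537 ± 10.6 FPKM in lon2-8, and the photosystem I subunit gene PSAN averaged 257 ± 6.4 and 392 ± 17.5 FPKM in the same order. The 2 rises, PSBR and RBCS2B, were both lost on centred libraries, without the filter, without the trend or without double mutant library 3. Carbon starvation genes were less uniform, with 14 of 30 higher, 2 lower and 14 not past the threshold (median 0.14). The β-glucosidase gene DIN2 had the largest rise of that list and the only one of at least 2-fold. It was at 2.35 ± 0.2 FPKM in the double mutant, against 0.16 ± 0.037 FPKM in lon2-8.

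Peroxisomal genes split. Of 27 genes of β-oxidation and the glyoxylate cycle, 13 rose, 6 fell and 8 did not pass (median 0.14). The glyoxylate cycle has a pair of enzymes of its own, and they moved apart. Malate synthase, MLS, was at 2.35, 1.77 and 2.15 FPKM in the double mutant, against 10.7, 9.98 and 11.3 FPKM in lon2-8 (−1.92 ± 0.093 log2, adjusted p = 2.30e-09), while isocitrate lyase, ICL, was at 81.3, 81.0 and 82.2 FPKM in the double mutant, against 46.0, 47.4 and 45.7 FPKM in lon2-8 (0.80 ± 0.091 log2, adjusted p = 8.42e-06). In the wild-type background MLS was at 2.05, 1.9 and 1.45 FPKM in atg2-4, against 1.99, 1.94 and 1.82 FPKM in Col-0, and its effect did not pass there (adjusted p = 0.601). ICL was at 43.7, 53.8 and 51.3 FPKM in atg2-4, against 11.0, 9.27 and 7.9 FPKM in Col-0 (2.29 ± 0.091 log2, adjusted p = 3.44e-10). The thiolase gene KAT5 fell (−0.76 ± 0.072), while the citrate synthase gene CSY3 and the acyl-CoA oxidase gene ACX4 rose by 0.41 ± 0.041 and 0.31 ± 0.035. ICL was named after its values were seen.

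Most peroxin genes, which build and import into peroxisomes, did not pass: 4 of 22 rose, 4 fell and 14 did not pass. The rises were those of PEX13 (0.32 ± 0.042), PEX19A (0.38 ± 0.057), PEX11C (0.22 ± 0.042) and PEX11A (0.22 ± 0.084). The 4 falls, among them PEX10 (−0.19 ± 0.075), PEX3-1 (−0.15 ± 0.058) and PEX11E (−0.12 ± 0.045), numbered 0 to 2 when lon2-8 library 1 or 3, any double mutant library, atg2-4 library 1 or 3 or Col-0 library 3 was left out. The protease gene DEG15 was at 8.26, 8.4 and 8.12 FPKM in the double mutant, against 7.5, 7.11 and 7.46 FPKM in lon2-8 (0.15 ± 0.05 log2, adjusted p = 0.0266), a call lost without double mutant library 1 or 2 or lon2-8 library 2 (adjusted p = 0.0605 to 0.0919) and on centred libraries (adjusted p = 0.0832). In the photorespiration and catalase list 9 of 21 fell and 2 rose. The main leaf catalase gene CAT2 was at 279, 280.5 and 284 FPKM in the double mutant, against 513, 517 and 514 FPKM in lon2-8 (−0.87 ± 0.03 log2, adjusted p = 7.83e-11), and the aminotransferase gene AGT1 at 354, 362 and 359.5 FPKM in the double mutant, against 465, 462 and 476 FPKM in lon2-8 (−0.38 ± 0.029 log2, adjusted p = 1.73e-07). Catalase genes CAT1 and CAT3 did not pass (adjusted p = 0.217 and 0.418).

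Of 29 oxidative stress genes, 13 fell and 7 rose, with enzymes that remove peroxide and superoxide among the falls. The cytosolic ascorbate peroxidase gene APX1 was at 81.9, 77.2 and 77.4 FPKM in the double mutant, against 265, 269 and 284 FPKM in lon2-8 (−1.78 ± 0.045 log2, adjusted p = 5.02e-12). The iron superoxide dismutase gene FSD1 was at 6.91, 7.01 and 7.52 FPKM in the double mutant, against 31.3, 31.7 and 30.3 FPKM in lon2-8 (−1.98 ± 0.057 log2, adjusted p = 1.52e-11), and the glutathione transferase gene GSTU19 at 123 ± 1.1 FPKM in the double mutant, against 232 ± 15 FPKM in lon2-8. Among the rises ZAT10, a zinc finger repressor, was at 41.4, 39.7 and 39.6 FPKM in the double mutant, against 15.1, 14.3 and 16.3 FPKM in lon2-8 (1.35 ± 0.054 log2, adjusted p = 3.61e-10).

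Iron genes showed 13 rises and 7 falls among 23 tested members (median 0.57). The bHLH factors that head the iron deficiency response rose most, with BHLH100 at 43.9, 44.0 and 45.3 FPKM in the double mutant, against 5.22, 4.91 and 5.11 FPKM in lon2-8 (2.90 ± 0.047 log2, adjusted p = 7.62e-14), BHLH38 at 35.9 ± 3.4 FPKM in the double mutant and 5.25 ± 0.38 FPKM in lon2-8, and BHLH39 at 21.9 ± 1.2 and 3.13 ± 0.22 FPKM in the same order. FER1, a ferritin that stores iron in plastids, was at 14.9, 14.9 and 15.9 FPKM in the double mutant, against 66.1, 64.3 and 66.3 FPKM in lon2-8 (−2.04 ± 0.057 log2, adjusted p = 1.13e-11), and FER3 and FER4 fell with it (−0.95 ± 0.064 and −1.15 ± 0.092). The root iron importer IRT1 rose to 56.1 ± 9.7 FPKM in the double mutant, against 25.8 ± 1.1 FPKM in lon2-8 (1.08 ± 0.1 log2, adjusted p = 1.58e-06). The summed root markers, to which PYK10 contributes much, were lower in the double mutant, as given with the marker sums. FIT, the partner of these bHLH factors, was lower (−0.81 ± 0.073). FER3, FER4, IRT1 and FIT were named after their values were seen.

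Root genes were lower in the double mutant than in lon2-8, but not all of them. Their mean level stood higher in lon2-8 than in any other genotype, Col-0 included. Of 28 tested root markers, 17 fell, 1 rose and 10 did not pass (median −0.47). PYK10, the β-glucosidase of root ER bodies, was at 735, 719 and 717 FPKM in the double mutant, against 1748, 1847 and 1723 FPKM in lon2-8 (−1.29 ± 0.031 log2, adjusted p = 2.74e-12), and its companion NAI2 at 88.3, 89.1 and 84.9 FPKM in the double mutant, against 162, 162 and 154 FPKM in lon2-8 (−0.86 ± 0.042 log2, adjusted p = 2.79e-09). Genes of root hairs (COBL9, EXPA7, EXPA18, PRP3, RHD2, RHS12, RHS13, RHS18 and RHS19) all fell, RHS12 to 10.0 ± 0.7 FPKM in the double mutant, against 20.1 ± 2.1 FPKM in lon2-8. Genes of the endodermal barrier (CASP1, CASP2, ESB1 and MYB36) did not pass, with differences between −0.08 and 0.14. In atg2-4 against Col-0 the same list had 8 rises and 5 falls (21.3% and 27.2% of all genes tested). The interaction, as defined for LON2, was negative for 13 members and positive for 1 (6.08% and 7.1% of all genes tested). The root hair and endodermis groups were drawn after the values were seen.

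Hormone response genes of growth were mostly lower. Type-A response regulators, early targets and brakes of cytokinin signalling, had 8 of 9 tested members lower and 0 higher (median −0.69). ARR7 was at 12.2, 11.7 and 12.4 FPKM in the double mutant, against 34.1, 36.5 and 36.8 FPKM in lon2-8 (−1.49 ± 0.068 log2, adjusted p = 1.36e-09), and ARR4, ARR8 and ARR9 differed by −0.69 ± 0.045, −0.79 ± 0.042 and −0.81 ± 0.051. Of 22 auxin response genes, 13 fell and 2 rose, among them the falls of GH3.3, which conjugates auxin to amino acids (−1.20 ± 0.095), and the repressor gene IAA19 (−0.86 ± 0.075) and the rise of IAA7 (0.42 ± 0.032). Jasmonate genes went both ways, with 9 higher and 11 lower of 28, for example LOX4 (0.87 ± 0.076) and AOC1 (−0.84 ± 0.064), whose reads may be shared with its close paralog AOC2.

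Genes for protein folding and turnover differed little in size. Of 22 genes of the ER unfolded protein response, 12 fell, among them the chaperone genes BIP1 and BIP2 (−0.50 ± 0.033 and −0.52 ± 0.039), which are near-identical copies, and the calreticulin gene CRT2 (−0.59 ± 0.043). The transcription factor genes of that response, BZIP28 and BZIP60, were among the 4 that rose (0.42 ± 0.038 and 0.54 ± 0.042), named after their values were seen. Proteasome genes had 20 of 45 lower and 3 higher with a median of −0.12, for example PAG1 at 32.6 ± 0.35 FPKM in the double mutant and 39.3 ± 0.69 FPKM in lon2-8. Of 15 heat shock genes 4 fell, and HSP17.6A was at 0.304, 0.254 and 0.413 FPKM in the double mutant, against 1.09, 1.05 and 1.26 FPKM in lon2-8 (−0.69 ± 0.12 log2, adjusted p = 3.79e-04).

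Nutrient and oxygen genes gave smaller sets. The nitrate list had 7 of 22 higher and 11 lower: the root transporter gene NRT1.8 averaged 32.1 ± 1.4 FPKM in the double mutant and 12.3 ± 0.36 FPKM in lon2-8, and the nitrate sensor gene NRT1.1 averaged 45.9 ± 0.57 and 67.4 ± 2.9 FPKM in the same order. Sulfur starvation genes had 8 of 22 higher and 4 lower, among them the ATP sulfurylase genes APS4 (0.66 ± 0.041) and APS1 (0.37 ± 0.031). LSU4, a gene induced by low sulfur that was picked after its values were seen, was at 4.56, 5.42 and 6.2 FPKM in the double mutant, against 1.68, 1.57 and 2.19 FPKM in lon2-8 (1.18 ± 0.12 log2, adjusted p = 2.49e-06). Core hypoxia genes had 10 of 15 higher and 2 lower, with the haemoglobin gene HB1 at 55.5, 54.4 and 51.9 FPKM in the double mutant, against 22.3, 25.3 and 21.4 FPKM in lon2-8 (1.20 ± 0.064 log2, adjusted p = 6.12e-09) and ADH1 at 17.2 ± 0.52 FPKM in the double mutant, against 6.09 ± 0.37 FPKM in lon2-8. Of 22 clock genes 9 rose and 3 fell, with LHY at 40.3 ± 1.6 FPKM in the double mutant and 29.9 ± 0.67 FPKM in lon2-8. Mitotic genes were mostly not past the threshold, with 7 of 27 lower and 1 higher, as were epidermis, guard cell and trichome markers, with 6 of 17 lower and 0 higher, led by the protodermal gene PDF1 at 51.9 ± 4.8 FPKM in the double mutant and 90.2 ± 10.3 FPKM in lon2-8.

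Transcripts of late embryos were low in all genotypes, and some of them were higher in the double mutant than in lon2-8. Of 12 tested seed storage and oil body genes, 6 rose, 1 fell and 5 did not pass (median 0.61), and the summed level of all 17 in the table was 49.8 to 59.3 FPKM in the double mutant, against 16.4 to 27.0 FPKM in lon2-8. The peroxiredoxin gene PER1 was at 10.3, 12.2 and 11.7 FPKM in the double mutant, against 1.44, 1.05 and 1.42 FPKM in lon2-8 (2.44 ± 0.14 log2, adjusted p = 1.37e-08). The oleosin genes OLEO1 and OLEO2, of the oil body coat, averaged 8.07 ± 1.8 and 4.83 ± 0.85 FPKM in the double mutant, against 1.24 ± 0.26 and 0.623 ± 0.39 FPKM in lon2-8, and EM6, a late embryogenesis protein, averaged 8.14 ± 0.48 and 1.35 ± 0.55 FPKM. CRU3, a cruciferin storage protein, was the member that fell, at 0.239, 0.774 and 0.379 FPKM in the double mutant, against 4.22, 2.62 and 2.69 FPKM in lon2-8 (−1.51 ± 0.25 log2, adjusted p = 2.03e-04). SESA3 did not pass, and the rise of SESA2 was lost without double mutant library 2 or lon2-8 library 2 or 3 (adjusted p = 0.0796 to 0.126).

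The same allele was next compared between backgrounds. The size of the effect in Col-0 comes from the 6 atg2-4 and Col-0 libraries, none of which enter the size of the effect in lon2-8. Both tests share an estimate of the spread from all 12 libraries, so their calls are not independent. Across all genes tested, the effects correlated at r = 0.844 and Spearman's rho = 0.715, which is across genes that are not independent replicates. Of the 10305 genes called in lon2-8 and the 10027 called in Col-0 (48.5%), 6921 were called in both in the same direction, 67.2% of the first set and 69% of the second, and 290 were called in both in opposite directions. At least 2-fold changes numbered 810 in Col-0 (3.92%). Of the 677 genes that rose at least 2-fold in atg2-4 over Col-0 (3.28%), 658 also rose in the double mutant over lon2-8, 492 of them at least 2-fold. Of the 133 that fell at least 2-fold in Col-0 (0.644%), 115 also fell in lon2-8, 62 of them at least 2-fold.

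The interaction passed for 2723 genes (13.2%), 1466 positive (7.1%) and 1257 negative (6.08%), and 144 of these were at least 2-fold, 56 positive and 88 negative (0.697%, 0.271% and 0.426%). On libraries centred on their median the balance turned, with 1140 positive and 1547 negative. Among the 3436 genes that rose in both backgrounds, the interaction was negative for 301, which rose less in lon2-8, and positive for 346. Among the 3485 genes that fell in both, it was negative for 255, which fell further in lon2-8, and positive for 132. Of the genes called in lon2-8 and not in Col-0, 815 of 3094 passed the interaction; for the others the difference between backgrounds was not past the threshold.

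**Figure D4:**
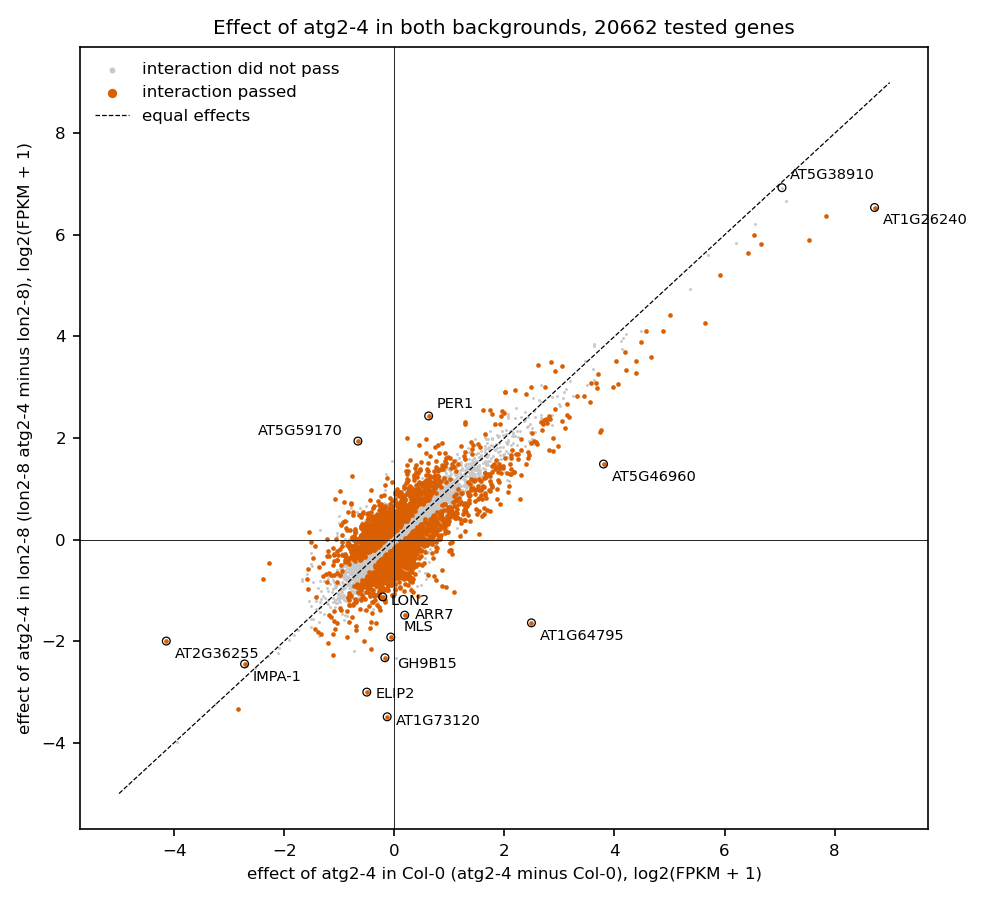
Effect of atg2-4 in lon2-8 (vertical) against its effect in Col-0 (horizontal) on the log2(FPKM + 1) scale, one point per tested gene, orange where the interaction passed. Points follow the dashed line of equal effects (r = 0.844); AT1G73120, ELIP2, MLS and ARR7 lie below it near 0 on the horizontal axis, and AT1G64795 lies at −1.64 in lon2-8 and 2.49 in Col-0.

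By list, members with an interaction were read against that 13.2%. Type-A response regulators had 8 of 9 members with a negative interaction and 0 positive. ARR7 was at 20.5, 18.1 and 18.1 FPKM in atg2-4, against 14.6, 17.4 and 17.5 FPKM in Col-0 (0.19 ± 0.068 log2, adjusted p = 0.0348), a rise in Col-0 where it fell in lon2-8, and its interaction was −1.68 ± 0.096 log2, adjusted p = 6.59e-07. Oxidative stress genes had 13 of 29 negative and 3 positive, with APX1 at 76.5, 85.0 and 86.3 FPKM in atg2-4, against 132, 135 and 135 FPKM in Col-0 (interaction −1.08 ± 0.064 log2, adjusted p = 7.79e-07). Seed genes had 9 of 12 positive and 0 negative, with OLEO1 at 3.02, 2.53 and 2.73 FPKM in atg2-4, against 1.82, 1.65 and 3.35 FPKM in Col-0 (interaction 1.77 ± 0.25 log2, adjusted p = 5.01e-04). Sulfur starvation genes had 12 of 22 positive and 1 negative, aliphatic glucosinolate genes 7 of 18 positive and 0 negative, and iron genes 9 of 23 positive and 2 negative.

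The salicylic acid list had 11 of 28 negative and 2 positive interactions, with a median interaction of −0.32, against 0.03 over all genes tested. ALD1 of pipecolate synthesis, GRXS13, PR1 and PR2 rose less in lon2-8 (1.77 ± 0.068, 0.20 ± 0.056, 1.13 ± 0.098 and 0.81 ± 0.1) than in Col-0 (2.81 ± 0.068, 0.92 ± 0.056, 1.90 ± 0.098 and 1.60 ± 0.1), and the interaction passed for each (adjusted p = 1.98e-05, 6.96e-05, 0.00278 and 0.00297). WRKY33 and MYB51, which control camalexin and indolic glucosinolates, rose more in lon2-8 (interactions of 0.92 ± 0.057 log2, adjusted p = 9.63e-07, and 0.34 ± 0.081 log2, adjusted p = 0.0141). Cysteine-rich receptor-like kinases had 8 of 29 positive and 0 negative. Autophagy genes had 1 positive and 1 negative interaction among 37, ATG4a (0.52 ± 0.061) and ATG8h (−0.78 ± 0.086). ALD1, GRXS13, ATG4a and ATG8h were named after their values were seen.

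**Figure D5:**
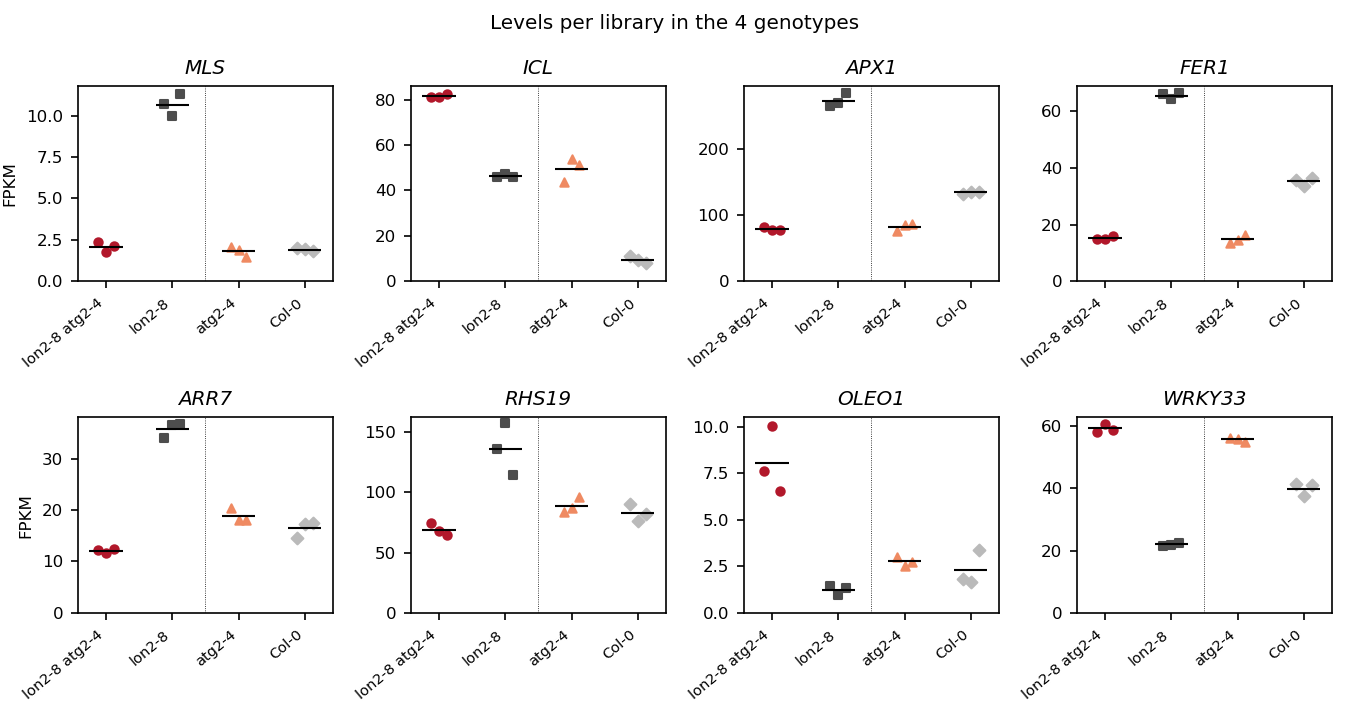
FPKM per library of 8 genes in the 4 genotypes (points, with the mean as a bar; the dotted line parts the backgrounds). MLS, APX1, FER1, ARR7 and RHS19 stand highest in lon2-8 and WRKY33 and OLEO1 lowest there, while ICL stands highest in the double mutant.

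The largest negative interactions after AT1G64795, AT1G73120 and ELIP2 were those of the pectin methylesterase inhibitor-like gene AT5G46960, AT1G26240, GH9B15, AT3G45851, AT4G12495, MLS and AT4G12490, between −1.78 and −2.31. AT5G46960 was at 14.1, 12.5 and 13.9 FPKM in the double mutant, against 4.04, 4.63 and 3.84 FPKM in lon2-8, and at 16.2, 18.2 and 23.0 FPKM in atg2-4, against 0.268, 0.243 and 0.849 FPKM in Col-0. AT1G26240 averaged 519 ± 37.4 FPKM in the double mutant and 4.67 ± 1.1 FPKM in lon2-8, and 645 ± 18.7 FPKM in atg2-4 and 0.527 ± 0.075 FPKM in Col-0. Among the 10 largest positive interactions were the extensin genes AT5G59170 and AT2G27380, the defensin-like genes AT2G36255 and AT1G34047, and the seed genes PER1, OLEO1 and SESA3. AT2G36255 was listed at 0 in all 6 libraries with atg2-4, against 4.97, 1.21 and 3.83 FPKM in lon2-8 and 14.9, 17.7 and 17.4 FPKM in Col-0, so its fitted interaction rests on the level of the other 6 libraries. AT5G07735, AT5G55045 and AT1G28810, of no named product, were at 0 to 3.37 FPKM in all libraries.

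Of the 290 genes called in opposite directions, 190 rose with atg2-4 in lon2-8 and fell with it in Col-0, and 100 did the reverse. Among the 6 named of the 100 were AT1G64795, at 15.5, 17.7 and 19.6 FPKM in the double mutant, against 51.6, 55.5 and 63.6 FPKM in lon2-8, and at 46.6, 47.0 and 43.6 FPKM in atg2-4, against 8.64, 6.85 and 6.56 FPKM in Col-0, and a cluster of lipid-transfer-like genes. In that cluster EARLI1 was at 325, 305 and 325 FPKM in the double mutant, against 551, 523 and 596 FPKM in lon2-8 (−0.80 ± 0.053 log2, adjusted p = 5.11e-08), and at 361, 384 and 335 FPKM in atg2-4, against 212, 215 and 207 FPKM in Col-0 (0.76 ± 0.053 log2, adjusted p = 9.77e-08). AT4G12490 averaged 116 ± 14.1 FPKM in the double mutant and 220.4 ± 23.6 FPKM in lon2-8, and 98.4 ± 10.2 FPKM in atg2-4 and 53.8 ± 5.9 FPKM in Col-0. The unnamed transcripts AT4G12485 and AT4G12495 overlap EARLI1 and AT4G12490, so these 4 are not independent. AT3G45851 spread widely in lon2-8, at 4.63, 4.3 and 5.25 FPKM in the double mutant, against 19.2, 5.74 and 10.7 FPKM in lon2-8.

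On the other side, AT5G51190, an ERF-type transcription factor, was at 33.6, 35.8 and 35.8 FPKM in the double mutant, against 21.5, 19.8 and 22.4 FPKM in lon2-8 (0.70 ± 0.066 log2, adjusted p = 1.48e-06), and at 18.1, 20.6 and 17.3 FPKM in atg2-4, against 34.9, 33.4 and 30.8 FPKM in Col-0 (−0.79 ± 0.066 log2, adjusted p = 5.06e-07). The extensin gene AT2G27380 averaged 19.5 ± 2.5 FPKM in the double mutant and 7.75 ± 2 FPKM in lon2-8, and 9.99 ± 2.2 FPKM in atg2-4 and 17.6 ± 2.1 FPKM in Col-0. AT5G59170 averaged 6.28 ± 1.3 and 0.907 ± 0.42 FPKM in the double mutant and in lon2-8, and 1.75 ± 0.31 and 3.42 ± 1.1 FPKM in atg2-4 and in Col-0. The other 3 of this pattern, SESA2, AT5G07735 and AT5G55045, were at most at 4.72 FPKM in any library, and each lost its call in lon2-8 without one of several libraries: SESA2 without double mutant library 2 or lon2-8 library 2 or 3 (adjusted p = 0.0796 to 0.126), AT5G07735 without double mutant or lon2-8 library 1 or 2 (adjusted p = 0.0683 to 0.0745) and AT5G55045 without double mutant or lon2-8 library 1 or 3 (adjusted p = 0.0754 to 0.105).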

How the data were processed

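The values deposited by the authors are FPKM, 1 per gene and library, per the file headers, and per the submitters' processing notes the tools included STAR 2.5.1a, Salmon 0.8.2, featureCounts 1.4.6-p5 of Subread, limma, edgeR and bcl2fastq. What each did, which build was used and how strand was handled were points not given in the sources used here. Of the 166 genes named by rule, 47 overlap another annotated gene, CAT2, FER1, PYK10 and WRKY33 among them, and reads may be shared. FPKM scales each gene by length and library size, so a gene's value depends on all others in its library. Names came from RefSeq (TAIR10.1; 26093 of 26093 identifiers matched). Values were whole multiples of 1 fragment within 0.01 for 26093 of 26093 genes, read from the steps of 3520 low genes, which gave the fragments per library. Replicates exceeded counting noise (chi-square per gene of 1.59 to 2.73, where 1 is counting noise alone). Precision rests on 3 libraries per genotype.

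The fit used limma 3.58.1 (R 4.3.3) with a trend on log2(FPKM + 1), over all 12 libraries and a mean per genotype, for genes at 1 FPKM or more in at least 3 libraries. Tests were two-sided, with Benjamini-Hochberg adjustment and a threshold of 0.05. The fit was also run on simulated data with independent normal noise. Far fewer genes changed there than here, so that run does not cover the share of changes in these libraries. Alternatives were a pseudocount of 0.1, no filter, a filter of 5 FPKM, median centring, a replicate block, the 6 libraries alone, no trend, and each of the 12 libraries left out. Summaries and figures used Python 3.11.15, pandas 2.3.3 and matplotlib 3.10.9.

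The comparison, the 31 gene lists and the rule for naming genes were chosen with earlier results of these data known. The 811 distinct genes of the lists (888 entries) include 799 with deposited FPKM values, and 732 passed the filter; entries that no annotation matched were left out. Genes named were LON2, ATG2, IMPA-1 and MAD1, the 15 largest rises and 15 largest falls with groups that did not overlap, up to 4 members of each list with the smallest adjusted p, the 10 largest interactions each way, and 6 genes of each opposite pattern; others named were picked after their values were seen. A few list members are not reported here by name.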

Additional observations from a re-analysis of the deposited data

Results flagged for a closer look

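Effects of atg2-4 that differed between the lon2-8 and Col-0 backgrounds by the interaction test were singled out: 2723 genes in all, and here those genes chosen by the naming rule whose effects differed by at least 2-fold. Values are the effect in lon2-8 minus the effect in Col-0, on the log2(FPKM + 1) scale.

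Among genes higher with atg2-4 in both backgrounds, the rise was smaller in lon2-8 for AT1G26240 (−2.19), AT5G46960 (−2.31), GLP9 (−1.64), AT1G26390 (−1.47), GLP4 (−1.38) and CYP71A12 (−1.07). Among genes lower with atg2-4 in lon2-8, whether or not they passed in Col-0, the effect was more negative there for AT1G73120 (−3.36), ELIP2 (−2.50), GH9B15 (−2.16), MLS (−1.86), UGT74E2 (−1.74), AT4G36880 (−1.17), APX1 (−1.08) and RHS12 (−1.04). Genes with opposite calls gave AT1G64795 (−4.13), AT3G45851 (−2.12), AT4G12495 (−1.87), AT4G12490 (−1.78), ARR7 (−1.68), EARLI1 (−1.56), AT4G12485 (−1.44) and HSP17.6A (−1.30) on one side. On the other were AT5G59170 (2.60), AT2G27380 (2.02), AT5G07735 (1.94), AT5G55045 (1.87), SESA2 (1.5), AT5G51190 (1.49) and COL2 (1.03).

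Other positive values were those of AT2G36255 (2.14), which was listed at 0 wherever atg2-4 was present, and AT1G34047 (1.81), which fell less in lon2-8. PER1 (1.81), OLEO1 (1.77), OLEO2 (1.42), EM6 (1.41) and ZAT10 (1.09) were higher with atg2-4 in lon2-8 by more than in Col-0. SESA3 (1.70) and AT1G28810 (1.65) did not pass in lon2-8 and were lower with atg2-4 in Col-0. Of the genes picked after their values were seen, ICL (−1.49), ALD1 (−1.04), EXPA7 (−1.02), PRP3 (−1.06), RHS13 (−1.08) and RHS19 (−1.06) also differed this far.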

How the results depend on the processing

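Counts of changed genes kept within 1.5 times of the values above under all 7 other settings, apart from those of at least 2-fold with a pseudocount of 0.1, which gave 1317 genes for the double mutant against lon2-8, 287 for the interaction and 1251 for atg2-4 against Col-0. With one library left out, the double mutant against lon2-8 gave 9228 to 10378 genes (4720 to 5256 higher, 4508 to 5127 lower, 852 to 883 at least 2-fold), the interaction 2094 to 2753 (1127 to 1463 positive, 967 to 1290 negative, 132 to 166 at least 2-fold) and atg2-4 against Col-0 8833 to 9996. LON2 stayed at −1.20 to −1.09, and ATG2 at −0.23 to −0.15, past the threshold in some of these fits only and not when the 6 libraries were fitted alone (−0.178, adjusted p = 0.0563). Centring each library on its median moved the contrast by −0.039, and 42.9% of called genes were then higher, against 50.7%. Interactions were then 1140 positive and 1547 negative, against 1466 and 1257. No single gene reported by rule changed direction. The replicate numbers did not pair the samples (correlations of deviations of −0.0298, −0.0311 and 0.0256 for the double mutant and lon2-8), and a replicate block gave 10180 genes for the double mutant against lon2-8, 2540 for the interaction and 9901 for atg2-4 against Col-0. Depth limits genes of a few FPKM.

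For 2 other named genes a call depended on the setting. AT5G55045 was at 1.22 with a pseudocount of 0.1 (adjusted p = 0.165), and AT1G28810 passed in lon2-8 on the 6 libraries alone (adjusted p = 0.0314) or without Col-0 library 2, atg2-4 library 2 or lon2-8 library 3 (0.0128 to 0.0462), while the interaction missed the threshold (adjusted p = 0.0504) once Col-0 library 3 was dropped. Interactions counted as lower numbered 13 proteasome genes on centred libraries, against 7, and 5 of the β-oxidation genes without double mutant library 3, against 8. The cause was not tested. A filter of 5 FPKM, under which fewer genes were tested, left 9 flavonoid genes lower, against 15, 15 receptor-like kinases higher, against 24, 7 negative interactions of the salicylic acid list, against 11, and 4 positive ones of seed genes, against 9.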
